A study of Mus musculus with 6 samples.

Results

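Tubulin transcripts were examined in oocytes of naturally aged ICR mice through 10 genes of the family, namely Tuba1a, Tuba1b, Tuba1c, Tubb2a, Tubb2b, Tubb3, Tubb4b, Tubb5, Tubb6 and Tubg1, out of 25631 genes in the deposited table. The genes were taken by their symbols, and the list was selected on measured values of this same comparison, among them the FPKM levels of the genes and the group difference of Tubb2b. Their levels, shares and fold changes are therefore given as a description, without a test. FPKM is the number of sequenced fragments counted on a gene, divided by the length of its transcript and by the total of the library, so it can be compared between genes. The oocytes came from 14-month-old females and were released by puncture from large antral follicles after equine chorionic gonadotropin had been given to stimulate follicle growth. For the aminophylline group (n = 3 libraries), the drinking water held 4 mM aminophylline, a nonspecific phosphodiesterase inhibitor derived from theophylline, during 1 week and no drug during the 3 weeks that followed. For the control group (n = 3 libraries), oocytes were taken from untreated mice of the same age that drank water without the drug and received the same hormone. How many oocytes or mice stand behind a library is not given in the sources used here, so the spread between libraries may be partly technical.

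Microtubules are hollow filaments built from dimers of alpha and beta tubulin, and in the oocyte they form the meiotic spindle that separates the chromosomes. Gamma tubulin does not enter the filament wall but forms ring complexes from which filaments start, and the rodent oocyte spindle is organized from many such centres rather than from centrioles. The alpha and beta proteins are each encoded by several genes, called isotypes, whose proteins differ mainly in their tails. In many cells the amount of free tubulin dimer sets the stability of tubulin mRNA, because the factor TTC5 recognizes the first amino acids of a tubulin chain as it leaves the ribosome and starts the decay of its mRNA.

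The coding starts are shown because they are what this feedback reads. In the GENCODE M21 annotation of the mouse genome build GRCm38, Tuba1b (chr15:98931425-98934565), Tuba1a (chr15:98949837-98953703) and Tuba1c (chr15:99029891-99038110) lie side by side, Tuba1c on the plus and the other two on the minus strand. Tubb3 lies at chr8:123411424-123422015 and Tubg1 at chr11:101119938-101126419 on the plus strand, and Tubb4b at chr2:25222160-25224702 and Tubb5 at chr17:35833921-35838306 on the minus strand. In the following lines the first 4 codons are written from 5′ to 3′, with the start codon in lower case and codons 2 to 4 in capitals. In the alpha genes the start codon ends exon 1 and the capitals open exon 2, whereas in the other genes shown all 12 bases lie in exon 1.
Tuba1a: atgCGTGAGTGC
Tuba1b: atgCGTGAGTGC
Tuba1c: atgCGTGAGTGC
Tubb2a: atgCGCGAGATC
Tubb2b: atgCGAGAGATC
Tubb3: atgAGGGAGATC
Tubb4b: atgAGGGAGATC
Tubb5: atgAGGGAAATC
Tubg1: atgCCGAGAGAA
The 3 alpha genes shared 1 start at the level of bases. The first 4 codons of the 6 beta genes, Tubb6 included, encoded 1 common peptide through different codons, and Tubg1 had a different start.

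Tubb2a and Tubb2b are neighbouring copies, and how far their reads can be separated bears on the main observation. Tubb2a lies at chr13:34074274-34078007 and Tubb2b at chr13:34126748-34130466, both on the minus strand, and each has 4 exons. Their coding sequences are 1338 bases long, differ at 47 of them (96.5% identity) and share an identical run of 551 bases, from base 610 to base 1160 counted from the A of the start codon. The 120 bases with the most differences, from base 67 to base 186, are printed below in capitals where the copies differ, which is at 18 positions. The stretch covers the end of exon 2 and the beginning of exon 3, at chr13:34076549-34076648 and chr13:34076269-34076288 for Tubb2a and at chr13:34129246-34129345 and chr13:34128963-34128982 for Tubb2b.
Tubb2a: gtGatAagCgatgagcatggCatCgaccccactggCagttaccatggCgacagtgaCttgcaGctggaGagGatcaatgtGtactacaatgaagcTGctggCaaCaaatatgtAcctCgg
Tubb2b: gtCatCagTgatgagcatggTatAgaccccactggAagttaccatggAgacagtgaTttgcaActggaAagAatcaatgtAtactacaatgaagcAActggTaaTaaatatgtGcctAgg
Of all 100-base stretches of the transcripts, 27.7% of Tubb2b and 36.9% of Tubb2a occurred unchanged in a transcript of another gene, the other copy or a pseudogene of Tubb2a. The share was higher for the alpha genes, at 65.1% for Tuba1a, 69.5% for Tuba1b and 53.4% for Tuba1c, which share stretches with each other and with pseudogenes. It was 29.2% for Tubb4b, through pseudogenes, 4.11% for Tubg1, through Tubg2, and 0 for Tubb3, Tubb5 and Tubb6. How reads from shared stretches were assigned is not given in the sources used here, so the division of reads within the Tuba1 genes and between Tubb2a and Tubb2b is uncertain.

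Oocyte markers defined all 6 libraries, with the summed FPKM of 12 such genes, Gdf9 and Zp3 among them, between 10752 and 16453. The lowest sum was that of control library 1, and the other 5 libraries were at 13261 or more. Gdf9 was at 1518 in control library 1 and at 2845 to 3663 elsewhere. Not every oocyte marker was lowest there, as Bmp15 was at 416 in control library 1 and at 330 in control library 2. The sum over 11 listed granulosa or cumulus cell markers was 16.0 to 23.8, and 8 of these markers stayed below an FPKM of 1 in every library. Control library 1 stood apart. Of 11 listed macrophage markers 9 were highest there, and the summed FPKM of the 11 was 258 against 82.8 to 104 in the other 5 libraries. Most of the sum in those 5 libraries was C1qb, at 79.2 to 99.8. C1qb went the other way and was lowest in control library 1, at 72.3. Lyz2, the lysozyme of macrophages, was at 66.4 in control library 1 and at no more than 0.573 elsewhere, and C1qc and Adgre1 were at 0 in the other 5. In the same library 9 of the 10 tubulin genes had their lowest value, while 27.2% of all tested genes had theirs there. The part of this library in the group differences was not tested, and the fold changes of the tubulin genes are given with and without it. In bulk samples fewer cells of a type and less RNA per cell cannot be told apart.

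The most abundant tubulin was Tubb4b, a widely expressed beta isotype, with FPKM of 389, 618 and 594 in control libraries 1, 2 and 3 and of 681, 785 and 634 in aminophylline libraries 1, 2 and 3. All aminophylline values lay above all control values, by a gap of only 2.65%. Its mean was 534 ± 126 (SD, n = 3) in control and 700.0 ± 77.2 (SD, n = 3) in aminophylline, a log2 fold change on log2(FPKM + 1) of 0.42 (SE 0.20), which was 0.20 without control library 1. Tubb6, a beta isotype with low levels in most adult tissues, came next at 181, 231 and 284 in control and 336, 316 and 331 in aminophylline. Its groups were separated by 11.1%, and the log2 fold change was 0.52 (SE 0.18), or 0.35 (SE 0.16) without control library 1. The 3 aminophylline libraries lay close together (327 ± 10.3), whereas the control libraries spread over a wider range (232 ± 51.9).

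Tubb2a, a beta isotype abundant in neurons, came next at 81.3, 161 and 203 in control and 209.6, 209.9 and 248 in aminophylline. The lowest aminophylline value exceeded the highest control value by 3.21%, and the log2 fold change of 0.68 (SE 0.28) was 0.30 without control library 1. Tubb3, best known as a neuronal marker and also made by oocytes, was at 55.7, 68.2 and 102 in control and 83.1, 95.1 and 103 in aminophylline. Here the groups overlapped, with control library 3 at the level of the highest aminophylline library, and the log2 fold change of 0.35 (SE 0.22) was 0.16 without control library 1. Tubb5, the beta isotype needed by dividing progenitor cells, was at 41.8, 53.6 and 65.7 in control and 58.3, 66.7 and 62.4 in aminophylline, with overlap and a log2 fold change of 0.24 (SE 0.19), or 0.07 without control library 1.

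Tubb2b, the close copy of Tubb2a that is required for neuronal migration in the developing cortex, showed the widest separation between groups of the 10 genes. Its FPKM was 2.47, 4.13 and 6.35 in control and 11.96, 12.5 and 15.7 in aminophylline. Every aminophylline library was above every control library, and the lowest of the former exceeded the highest of the latter by 88.4%. The values rested on 160, 112 and 388 reads in control and on 649, 596 and 925 reads in aminophylline, out of library totals of 14112341 to 33641283 reads. The mean was 4.32 ± 1.94 (SD, n = 3) in control and 13.4 ± 2.04 (SD, n = 3) in aminophylline, a log2 fold change of 1.49 (SE 0.28). It was 1.22 (SE 0.25) without control library 1 and between 1.22 and 1.76 when any single library was left out. Tubb2b was the ninth gene of the 10 by level in both groups, well below its neighbour Tubb2a.

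Among the alpha genes, Tuba1c was at 28.6, 68.0 and 70.6 in control and 78.1, 94.6 and 77.3 in aminophylline. The groups did not overlap, with a gap of 9.47%, and the log2 fold change of 0.67 (SE 0.30) was 0.26 (SE 0.17) without control library 1. Tuba1b, its neighbour and a major alpha isotype of many cells, was at 21.3, 54.6 and 44.9 in control and 44.5, 47.4 and 39.8 in aminophylline. Its highest and its lowest value were both in control, and the log2 fold change of 0.22 (SE 0.29) became -0.17 without control library 1. Tuba1a, the alpha isotype of developing neurons, was barely present. It had 31, 26 and 19 reads in control and 29, 47 and 46 reads in aminophylline, an FPKM of 0.579, 1.16 and 0.376 against 0.646, 1.19 and 0.945, and was the only one of the 10 genes that did not pass the filter of an FPKM of at least 1 in 3 libraries.

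Tubg1, the gamma tubulin of the ring complex, was at 15.3, 22.6 and 22.9 in control and 22.1, 19.5 and 19.3 in aminophylline. The mean was 20.3 in both groups and the libraries overlapped. The log2 fold change was 0.02 (SE 0.20) and changed sign with the scaling, to -0.02 with libraries rescaled to the same sum and -0.06 with log values centred on their median, and it was -0.16 without control library 1.

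**Figure D1:**
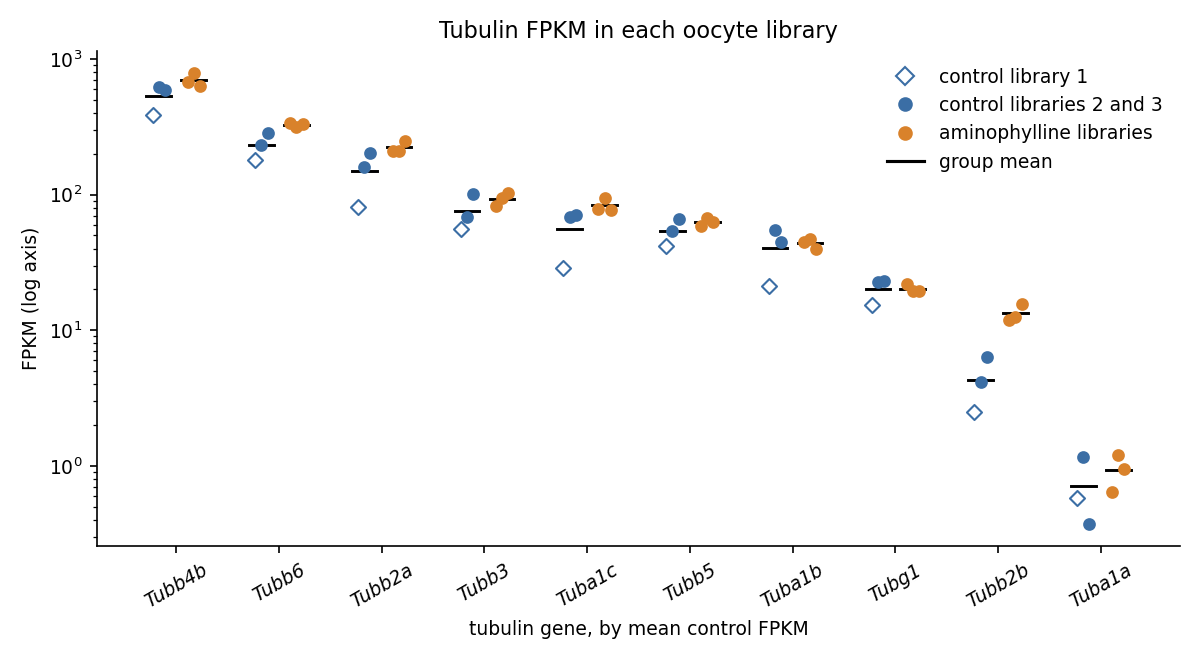
FPKM of the 10 tubulin genes (y axis, log scale) in each oocyte library, by gene in the order of the mean control FPKM (x axis). Points are libraries, control in blue and aminophylline in orange, and black lines are group means (n = 3). The open diamond, control library 1, is the lowest point for 9 of the 10 genes, and the widest gap between the colours is that of Tubb2b, from 6.35 to 11.96.

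Ranked by mean FPKM, the order was the same in both groups: Tubb4b, Tubb6, Tubb2a, Tubb3, Tuba1c, Tubb5, Tuba1b, Tubg1, Tubb2b and Tuba1a. In control the ranges of neighbours in this order overlapped all the way from Tubb6 to Tubg1, whereas genes farther apart did not, such as Tubb6 (181 to 284) and Tubb3 (55.7 to 102). In aminophylline only Tubb3 and Tuba1c overlapped. The coefficient of variation of Tubb2a was 41.7% in control and 10.03% in aminophylline, and that of Tuba1c 42.3% and 11.7%. Over control libraries 2 and 3 alone it was 16.5% for Tubb2a and, below the aminophylline value, 2.65% for Tuba1c.

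Aminophylline libraries were higher than all control libraries, without overlap, for 5 of the 10 genes, Tuba1c, Tubb2a, Tubb2b, Tubb4b and Tubb6. The same held for 7.51% of the 10340 genes that passed the filter, and since the comparison itself had a part in the choice of the genes, nothing is read from their count. Without control library 1 the same 5 genes were free of overlap (10.7% of tested genes). Leaving out a library cannot create an overlap, so this count could not have fallen. With libraries rescaled to the same sum there were 3, Tubb2b, Tubb4b and Tubb6 (5.61% of tested genes), and with median centring also 3, Tubb2a, Tubb2b and Tubb6 (4.97% of tested genes). The median log2 fold change was 0.42 over the 9 genes that passed the filter and 0.10 over all tested genes. All 9 were above 0, as were 64.8% of all tested genes, although Tubg1 was below 0 under rescaling or centring and Tubg1 and Tuba1b were below 0 without control library 1.

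**Figure D2:**
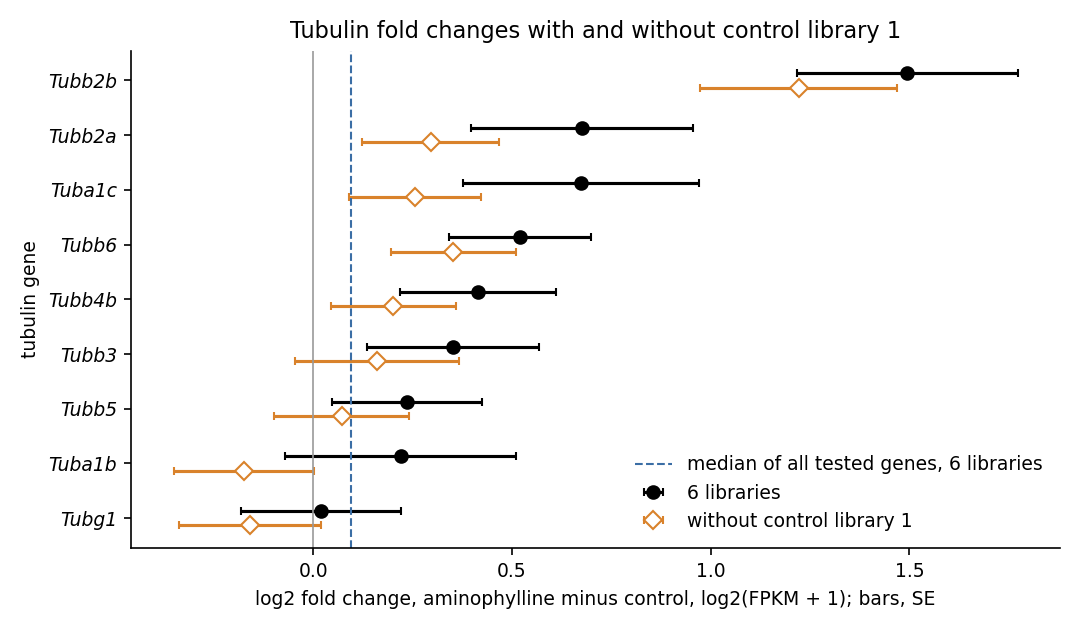
Log2 fold change of the 9 tubulin genes that passed the filter (x axis, aminophylline minus control on log2(FPKM + 1), bars SE), by gene (y axis). Black circles use all 6 libraries and open orange diamonds leave out control library 1, which moves Tubb2b from 1.49 to 1.22 and Tuba1c from 0.67 to 0.26. The dashed line is the median of all tested genes, 0.10.

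The summed FPKM of the 6 beta genes was 750.4, 1135 and 1256 in control and 1379, 1485 and 1394 in aminophylline, without overlap (1047 ± 264 against 1420 ± 57.3, SD, n = 3). The control mean was 1196 without control library 1. As a share of the FPKM sum of each library the groups overlapped, at 0.138%, 0.193% and 0.246% in control and 0.237%, 0.262% and 0.258% in aminophylline. These genes held at least 99.97% of all beta tubulin FPKM in every library. The 3 Tuba1 genes summed to 50.4, 124 and 116 in control and 123, 143 and 118 in aminophylline, with overlap. They made up only 14.3% to 29.2% of all alpha tubulin, and the most abundant alpha tubulin transcript was Tuba3a, an isotype best known from the testis, at 183, 177 and 217 FPKM in control and 257, 205 and 262 in aminophylline. With Tuba3a, Tuba3b, Tuba4a and Tubal3 counted in, all alpha tubulins summed to 352, 424 and 476 in control and 531, 511 and 513 in aminophylline, again without overlap. As a share of the FPKM sum of each library they too overlapped, at 0.0646%, 0.0721% and 0.0933% in control and 0.0911%, 0.0902% and 0.0948% in aminophylline. Beta transcripts outnumbered alpha transcripts 2.13, 2.68 and 2.64 to 1 in control and 2.60, 2.91 and 2.72 to 1 in aminophylline, so the balance of both families overlapped between the groups.

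Within the beta total, 4 of the 6 shares overlapped between the groups and 2 did not. Tubb4b took 51.2% ± 3.59 in control and 49.2% ± 3.69 in aminophylline (SD, n = 3 here and below). Tubb6 took 22.3% ± 1.88 and 23.1% ± 1.62, Tubb2a 13.7% ± 2.70 and 15.7% ± 1.89, and Tubb3 7.18% ± 1.07 and 6.60% ± 0.691. These were the 4 that overlapped, and the difference in the Tubb2a share was 1.995 percentage points with control library 1 and 0.553 without it, that in the Tubb6 share 0.767 and 1.62. Tubb5 was the only beta isotype with a lower share in every aminophylline library, at 5.57%, 4.72% and 5.23% in control and 4.23%, 4.49% and 4.47% in aminophylline, although its FPKM overlapped. Tubb2b had a higher share in every aminophylline library, at 0.330%, 0.364% and 0.506% in control and 0.867%, 0.843% and 1.13% in aminophylline, and stayed the smallest of the 6 shares throughout.

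Within the Tuba1 total, Tuba1c took 56.7%, 54.9% and 60.9% in control and 63.4%, 66.1% and 65.5% in aminophylline, without overlap. Tuba1b had the opposite pattern, at 42.2%, 44.1% and 38.8% in control and 36.1%, 33.1% and 33.7% in aminophylline. Tuba1a took 0.803% ± 0.428 and 0.719% ± 0.170. The ratio of Tuba1c to Tuba1b was thus 1.34, 1.24 and 1.57 in control and 1.75, 1.99 and 1.94 in aminophylline, and control library 1, low for both genes, lay among the other control libraries in this ratio. Set against all alpha tubulins, however, the shares of both genes overlapped, with Tuba1c at 13% ± 4.27 and 16.1% ± 2.10 and Tuba1b at 9.46% ± 3.42 and 8.47% ± 0.768. Without control library 1 the differences in these shares were 0.656 percentage points for Tuba1c and -2.69 for Tuba1b. The coding sequences of the pair are 98.4% identical, which leaves the division of their reads uncertain.

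**Figure D3:**
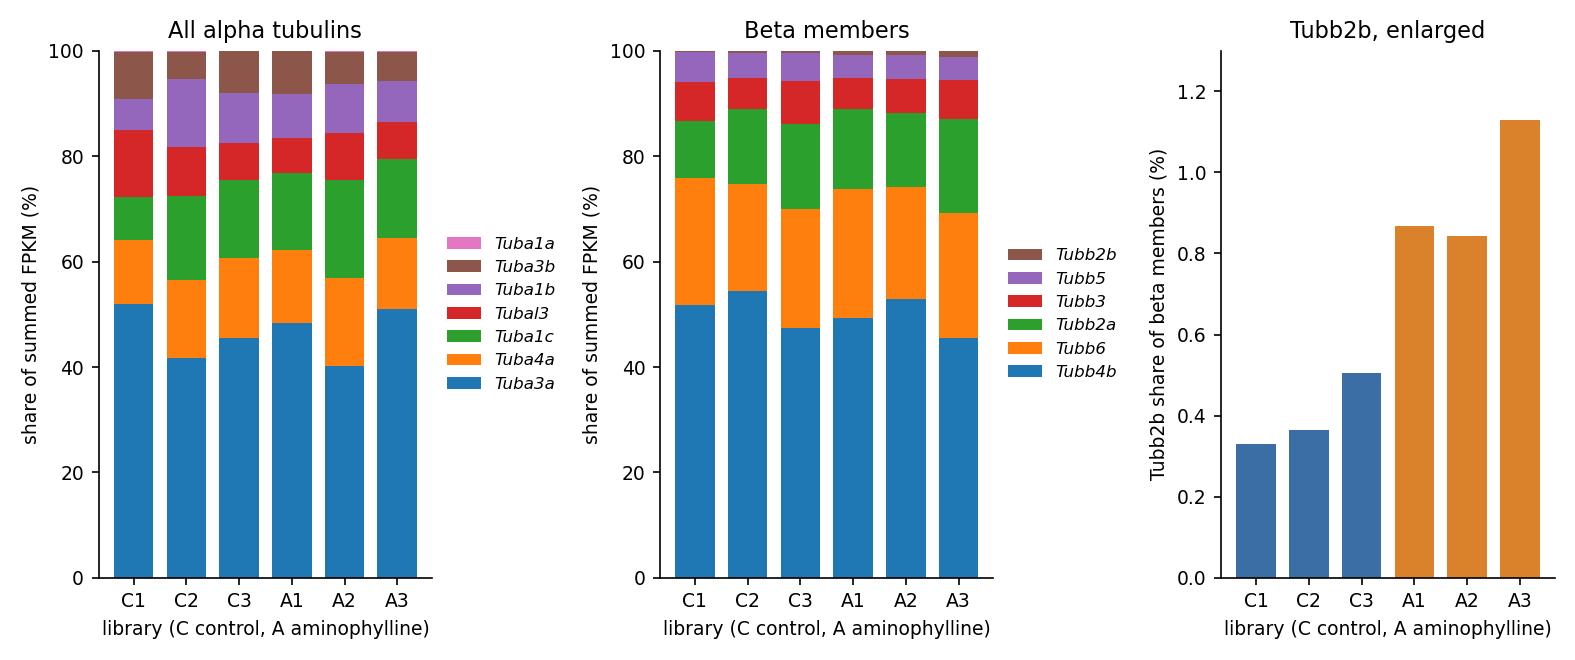
Share of summed FPKM (y axis, %) taken by each alpha tubulin of all alpha tubulins (left) and by each beta gene of the 6 beta genes (middle), as stacked bars for control libraries C1 to C3 and aminophylline libraries A1 to A3 (x axis). The right panel enlarges the Tubb2b share, which was 0.330% to 0.506% in control (blue) and 0.843% to 1.13% in aminophylline (orange), while Tuba3a and Tubb4b were the largest shares in all 6 libraries.

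Outside the family, the genes whose FPKM followed Tubb2b most closely over the 6 libraries were Rita1 (Pearson r 0.996), Ndufv1 (0.992), Gm21761 (0.991), Amdhd2 (0.990) and Csad (0.989). These values describe likeness only, since all 6 points come from the same 2 groups of libraries and each of the 5 genes was also higher in every aminophylline library. Rita1, for example, was at 1.44, 1.91 and 2.41 in control and 4.03, 3.90 and 4.53 in aminophylline.

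Genes that fold, modify, nucleate and bind tubulin were then compared between groups, to see what accompanied the isotypes. These genes had no part in the choice of the 10. They were tested with limma on log2(FPKM + 1), two-sided and adjusted over all 10340 tested genes by the Benjamini-Hochberg method. The lists were, however, chosen with earlier results of these data known, so their p-values are not free of that choice. Of 109 such genes, in 7 lists, 107 were in the table and 79 were tested. None passed an adjusted p of 0.05, nor did any gene of the whole table (0%), where the smallest adjusted p was 0.455 and 750 genes had an unadjusted p under 0.05 (760 by limma's voom on recovered reads). At an unadjusted p under 0.05, 6 of the 79 were higher in aminophylline and 5 lower, against 4.41% and 2.84% of all tested genes. With the replicate number as a block, 12 were higher and 7 lower, against 9.88% and 4.3% of all tested genes. Under the block 47 genes of the table (0.455%) passed an adjusted p of 0.05, none of them among the 79. Without control library 1 the counts were 3 and 3, against 2.03% and 1.49% of all tested genes.

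Of the 7 tested genes of the other tubulins, Tubd1 and Tube1, the delta and epsilon tubulins of centriole microtubules, were lower in every aminophylline library. The share of all tested genes that were lower without overlap was not computed. Both genes had an unadjusted p under 0.05, and 2.84% of all tested genes were lower at that threshold. Tube1 was at 6.46, 5.28 and 5.85 FPKM in control and 3.88, 3.50 and 3.78 in aminophylline, a log2 fold change of -0.54 (SE 0.20, unadjusted p = 0.0235, adjusted p = 0.682, limma). Tubd1 was at 11.4, 11.1 and 13.5 in control and 8.51, 8.92 and 7.76 in aminophylline, a log2 fold change of -0.47 (SE 0.19, unadjusted p = 0.0353, adjusted p = 0.682, limma). Without control library 1 the unadjusted p was 0.0450 for Tubd1 and 0.0590 for Tube1 (limma). Tuba8 and Tubb4a, at an FPKM of no more than 0.353 in any library, did not pass the filter and were not tested, and the other 5 tested tubulins, Tuba3a, Tuba3b, Tuba4a, Tubal3 and Tubg2, overlapped between groups.

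Newly made tubulin is received by prefoldin, folded in the ring-shaped chaperonin CCT and joined into dimers by the tubulin cofactors. At an unadjusted p under 0.05, 4 of the 20 tested genes of this folding route were higher and 3 lower. Over all tested genes the shares were 4.41% and 2.84%. The list had a median log2 fold change of 0.14. The cofactor genes Tbca, Tbcb and Tbcc, whose products guide beta tubulin, alpha tubulin and the final dimer, were all higher without overlap. Of all tested genes 7.51% were higher without overlap. The other tested genes of the cofactor step overlapped, with log2 fold changes of 0.15 (SE 0.21) for Tbcd, -0.41 (SE 0.24) for Tbce and 0.14 (SE 0.22) for Arl2, which encodes a small GTPase that works with the cofactors. Tbcc was at 19.3, 22.3 and 27.6 in control and 33.2, 29.6 and 36.7 in aminophylline, a log2 fold change of 0.51 (SE 0.19, adjusted p = 0.682, limma). Tbcb had a log2 fold change of 0.38 (SE 0.15) and Tbca of 0.36 (SE 0.15). The prefoldin subunit gene Pfdn6 was at 109, 120.04 and 114 in control and 153, 151 and 152 in aminophylline, a log2 fold change of 0.41 (SE 0.14, adjusted p = 0.682, limma).

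In the opposite direction, the CCT subunit gene Tcp1 was at 104, 96.2 and 119.98 in control and 82.3, 78.4 and 78.6 in aminophylline, a log2 fold change of -0.41 (SE 0.16, adjusted p = 0.682, limma). Another CCT subunit gene, Cct8, had a log2 fold change of -0.39 (SE 0.16), also without overlap. The other tested CCT subunit genes overlapped between groups and lay on both sides of 0. Their log2 fold changes ran from -0.31 (SE 0.21) for Cct4 to 0.14 (SE 0.23) for Cct7. The prefoldin subunit gene Vbp1 had one of -0.70 (SE 0.30), but control library 2, at 90.6, lay among the aminophylline libraries at 104, 85.2 and 117, while the other control libraries were at 218 and 226. The genes named from this list thus lay on both sides. At the same threshold with median centring, 1 gene was higher, Tbcc, and 4 were lower, against 2.72% and 4.85% of all tested genes. Without control library 1, 1 gene was higher, Pfdn6, and 2 were lower, against 2.03% and 1.49% of all tested genes.

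Next came 15 tested genes of the gamma-tubulin ring complex and of augmin, the complex that places gamma tubulin on the side of spindle microtubules. At an unadjusted p under 0.05, 2 were higher, both encoding augmin subunits, and none lower, against 4.41% and 2.84% of all tested genes. With the replicate block 4 were higher and 2 lower, against 9.88% and 4.3% of all tested genes. Haus8 was at 33.3, 45.4 and 48.3 in control and 62.5, 61.9 and 80.8 in aminophylline, a log2 fold change of 0.69 (SE 0.19, unadjusted p = 0.00459, adjusted p = 0.651, limma). Haus4 was at 35.6, 44.7 and 58.6 in control and 68.7, 70.5 and 73.2 in aminophylline, a log2 fold change of 0.63 (SE 0.19, unadjusted p = 0.00758, adjusted p = 0.661, limma). Neither overlapped between groups, and with the replicate block their adjusted p-values were 0.0768 and 0.104 (limma). In that fit Vbp1 of the folding list, which was lower, had an adjusted p of 0.0899 (limma). Another augmin subunit gene, Haus3, the most abundant of the list, had a log2 fold change of -0.43 (SE 0.26), or -0.23 without control library 1, with overlap.

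The other 4 lists held no gene at an unadjusted p under 0.05. Their tested members numbered 3 for the decay route of tubulin mRNA, 10 for tubulin modification, 16 for microtubule binding and growth and 8 for microtubule severing and destabilization. Ttc5, which encodes the sensor of newly made tubulin, was at 4.25, 6.95 and 8.22 in control and 6.78, 7.33 and 8.15 in aminophylline, with a log2 fold change of 0.21 (SE 0.25) that was -0.03 without control library 1. Cnot11, which encodes a subunit of the deadenylase complex of this decay route, had a log2 fold change of 0.28 (SE 0.22). The most abundant members of the remaining lists were Tpgs2, a subunit of the tubulin polyglutamylase (-0.13, SE 0.17), Tpx2, a spindle assembly factor (-0.09, SE 0.21, or -0.02 without control library 1), and Stmn1, which binds free tubulin dimers (0.20, SE 0.16), all as log2 fold changes. With the replicate block, 3 of the 16 genes of binding and growth were higher at an unadjusted p under 0.05, Map4, Camsap1 and Camsap3, against 9.88% of all tested genes.

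**Figure D4:**
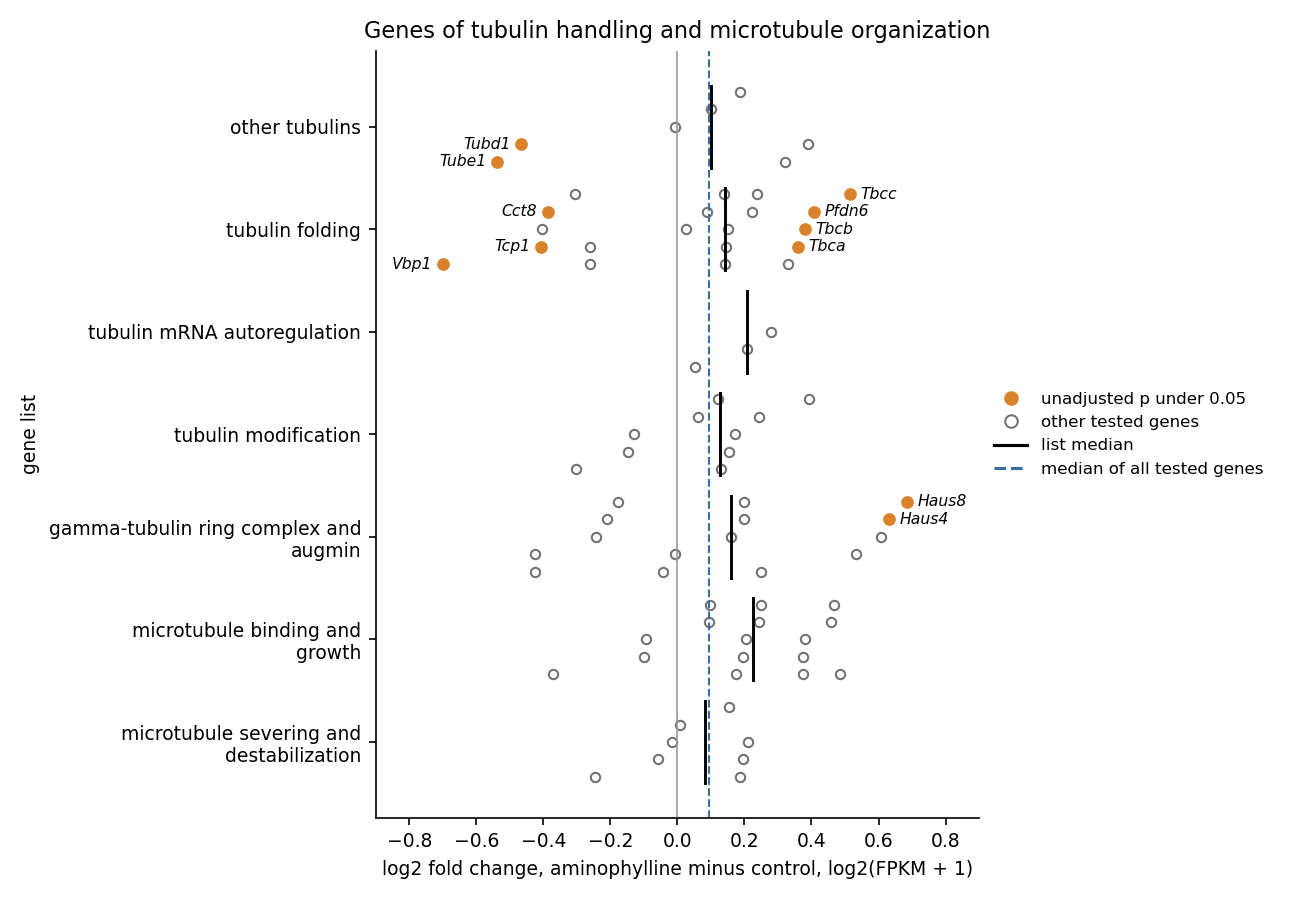
Log2 fold change (x axis, aminophylline minus control on log2(FPKM + 1)) of the 79 tested genes in 7 lists related to tubulin (y axis), 1 point for each gene. Filled orange points have an unadjusted limma p under 0.05, 6 on the higher and 5 on the lower side, and none passed the adjusted threshold. Black bars are list medians, and the dashed line is the median of all tested genes, 0.10.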

How the data were processed

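RNA-seq of 6 oocyte libraries (3 control, 3 aminophylline, grouped by their labels) was analysed from the FPKM values per gene that the authors deposited, with no further scaling between libraries. The submitters' processing notes name the builds GRCm38 and mm10, and the aligner and counting program are not given in the sources used here. The reads behind the FPKM were recovered from ratios between libraries, and 100% of the values of 22583 genes came out whole within 1e-05 reads. Totals were 14112341 to 33641283 reads. The precision of the values rests on 3 libraries a group.

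Group differences were fitted with limma 3.58.1 in R 4.3.3 (moderated, with a mean trend) on log2(FPKM + 1). A gene was tested if 3 or more of the 6 libraries reached an FPKM of 1, and p-values were adjusted by the Benjamini-Hochberg method over all 10340 of them. The p-values measure the spread between these libraries. Shares were computed from summed FPKM. Coding sequences came from GENCODE M21. The genes and lists were chosen with earlier results of these data known. All 10 tubulin genes were described. From each related list the text names the genes with an unadjusted p under 0.05, at most 4 by rank, or else the most abundant gene, and other genes named beside a small count were added after their values were seen. For Tubb2b the 5 genes with the highest r were taken.

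Both groups carry replicate numbers 1 to 3, which the labels do not tie to a shared animal or day. Deviations from the group means correlated between same-numbered libraries at 0.138, 0.140 and 0.552 over the tested genes. Control library 2 correlated more with aminophylline library 1 (0.423). These values do not establish that the numbers pair the libraries. The main fit had no block, because the study gives none, and the block was run as an alternative. The code was tested on simulated data. Python 3.11.15 and matplotlib 3.10.9 were used for summaries and plots.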

Additional observations from a re-analysis of the deposited data

How the results depend on the processing

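The alternatives were a smaller pseudocount (0.1), testing unfiltered genes, testing genes with a mean FPKM from 5, rescaling to the same sum, median centring, an unmoderated linear model, the replicate block, voom on recovered reads and each library left out in turn. No tubulin-related gene passed an adjusted p of 0.05 under any of them. Over all genes 47 passed under the replicate block, which pairs same-numbered libraries, and 0 under the others. The related genes at an unadjusted p under 0.05 that were higher numbered 6 (4.41% of all tested genes were). They numbered 3 with median centring (2.72%) and 12 with the replicate block (9.88%). With 1 library left out they numbered from 2 without aminophylline library 3 (2.37%) to 14 without control library 3 (11.7%). Those that were lower numbered 5 (2.84% of all), but 3 with the unmoderated model (2.61%) and 0 to 11 with 1 library left out (1.25% to 7.29% of all, 11 without control library 2, 1 without control library 3, and 0 without aminophylline library 1 or 2). The cause was not tested. The tubulin genes higher without overlap numbered 5 (7.51% of all tested genes were). They numbered 3 with rescaling (5.61%) or median centring (4.97%), and 5 to 7 with 1 library left out. The share of all tested genes was 10.7% without control library 1 and was not computed for the other left-out libraries. With 1 library left out the count could not have fallen below 5, because leaving out a library cannot create an overlap. The share of Tubb5 differed by -0.77 percentage points, or -1.18 in shares of reads. The share of Tuba1c differed by 7.46 points and that of Tuba1b by -7.38 within the Tuba1 genes, but by 3.09 and -0.99 over every alpha tubulin. The log2 fold changes of the 9 tubulin genes moved by less than 1 SD of the libraries under all alternatives. Leaving out 1 of 3 libraries cannot exceed this limit. The replicate block, the unmoderated model and the unfiltered fit return the same fold change in any case. The limit therefore does not show that the values are stable, and Tuba1b went from 0.22 to -0.17 without control library 1. Rescaled and left-out values of the beta and alpha sums were added after the data were seen. With 3 libraries a group, an overlap of groups cannot show that levels are alike.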

Other observations

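The low tubulin values of control library 1 did not extend to every alpha tubulin. Tuba1b and Tuba1c were at 21.3 and 28.6 FPKM there against at least 39.8 and 68.0 in the other 5 libraries. Tuba4a was also lowest in control library 1, at 42.4 against 62.4 to 85.7 in the other 5 libraries. Tuba3a, the most abundant alpha tubulin, was at 183 in control library 1 and at 177 in control library 2. Tubal3, a divergent alpha tubulin, was at 44.5 in control library 1, within its range of 33.7 to 45.5 over the other 5 libraries. The share of Tuba3a in all alpha tubulin was accordingly highest in control library 1, at 52.0%, against 40.1% to 51.0% elsewhere.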
